A study of Mus musculus with 2 samples.

Results

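The genes described here encode the enzymes that place and remove acetyl and methyl groups on histones, together with the enzymes that methylate DNA or oxidise that mark. They were taken by symbol: the lysine demethylases Kdm1 to Kdm8, the Kmt2, Kmt5 and Setd methyltransferases, Ezh1 and Ezh2, the deacetylases of the Hdac and Sirt families, the acetyltransferases of the Kat family with Ep300 and Crebbp, and the Dnmt and Tet genes. The rule reads symbols and no measured value. The rule matched 75 of the 46095 rows of the count table, and 66 of the 75 reached a mean of 1 count per 1000000 reads (CPM) over both libraries, among 12495 genes that did so. Another 5 had reads below that level and 4 had no read in either library.

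Marrow cells of C57BL/6 mice were cultured for 5 days with M-CSF at 100 ng/ml, the cytokine that turns marrow progenitors into macrophages, and their RNA was sequenced. The knockout (KO) library is labelled TIPE1-/-, and the design text of the series gives these mice as carrying LyzM-Cre with floxed Tipe1, so that Cre comes from the myeloid lysozyme locus Lyz2. The control (WT) library is labelled wild type, and the design text describes its mice as floxed for Tipe1 and names no Cre for them. Each genotype was represented by 1 library, the number of mice behind each is unstated, and no difference below has a replicate check. Genotype, Cre allele, mouse and culture cannot be told apart.

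Acetyl groups on histone lysines loosen the contact of histones with DNA and are read by bromodomain proteins at active enhancers and promoters, whereas methyl groups are read according to the residue that carries them. Methylation of histone H3 at lysine 4 marks promoters and enhancers, at lysine 27 Polycomb-silenced genes and at lysine 36 transcribed gene bodies. DNMT enzymes methylate cytosines in CpG dinucleotides, and TET dioxygenases oxidise the product on the way to its removal. In macrophages these enzymes are known for setting the enhancers of the lineage and for tuning inflammatory genes, with HDAC3, KDM6B, EZH2 and TET2 among the best studied.

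The libraries held 11782664 (WT) and 15815956 (KO) counts, and values are CPM after scaling by edgeR's TMM method unless a scale is named. Ratios are KO over WT, with a 95% counting interval in parentheses that covers counting error only. Tnfaip8l1, which encodes TIPE1, had 21 reads in WT and 3 in KO, 8.94-fold lower in KO (2.67 to 46.8), while no source used here gives the exons removed. All 12 macrophage markers were detected, with Adgre1 called higher (2.40-fold), at a summed level of 18149 CPM in WT and 19257 CPM in KO. Of 15 tested stromal markers 14 were called lower in KO, and the summed level of the list was 1993 CPM against 177 CPM, with Tagln at 0 in both. Of 9 neutrophil markers 4 were called lower (704 against 504 CPM summed), as were all 4 tested B cell markers (12.6 against 2.46 CPM), with Ighm at 0 in both. Lists of T and NK, dendritic, mast and erythroid cells summed to less than 10 CPM in each library, and endothelial markers to 48.4 (WT) and 54.96 (KO) CPM. Among these, Cd8a of the T and NK list was called higher (1.74, 1.04 to 2.98). Of the endothelial genes Vwf was called higher (1.80, 1.53 to 2.13) and Cdh5 lower (0.349, 0.217 to 0.549). Of 13 markers of dividing cells 5 were called higher and 1 lower, at 349 CPM in WT and 485 CPM in KO in all. The part of these other cells in the values below was not tested. In RNA from a mixed culture, fewer cells of a type and less RNA per cell cannot be told apart.

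Chromatin enzyme genes stood at nearly the same level in both libraries. A gene was called higher or lower when its CPM differed by 1.5-fold or more and its counting interval excluded 1. Only 2 of the 66 tested members were called higher in KO, Dnmt3a and its antisense gene Dnmt3aos, where 6.47% of all 12495 tested genes were. None was called lower, against 7.23% of all tested genes. Less than 25% of the lower value apart were 56 of 66 members (84.8%), against 67.5% of all tested genes. Above a mean of 10 CPM the shares were 90.6% of 53 members and 79.5% of 8379 genes, and Dnmt3a was the 1 member called higher there, against 4.92% of those genes, with 0 lower against 2.66%. The median log2 ratio of the members was 0.03 and that of all tested genes 0.01, and the interquartile range of the members ran from -0.10 to 0.20 against -0.18 to 0.19.

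With the threshold lowered to a difference of 25% of the lower value, Tet2, Kmt5a and Sirt6 joined the higher members, which made 5 of 66 against 12.1% of all tested genes, and Sirt4 was the single lower one, against 11.4%. When the bound of the interval itself had to pass that smaller threshold, Dnmt3a, Dnmt3aos and Tet2 remained on the higher side, 3 of 66 against 6.39%, and 0 on the lower side, against 5.99%. No member was 2-fold apart with an interval that excluded 1, where 2.59% of all tested genes were higher and 4.78% lower by that much. Counting error alone was small for many members, since their median level of 49.5 CPM was above the 24.7 CPM of all tested genes matched to the annotation. Under TMM, intervals excluded 1 for 21 members on the higher side and 5 on the lower side, 31.8% and 7.58% of them, against 22.8% and 18.4% of all tested genes. This count was not repeated with another scaling, so the excess on the higher side holds for TMM only. The side of a small ratio moved with the scaling. Under TMM 36 members had a log2 ratio above 0 and 30 below, and with total counts 28 were above and 38 below. Just inside the 1.5-fold limit stood Dnmt3a at 1.51, and just outside it Tet2 at 1.44.

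**Figure D1:**
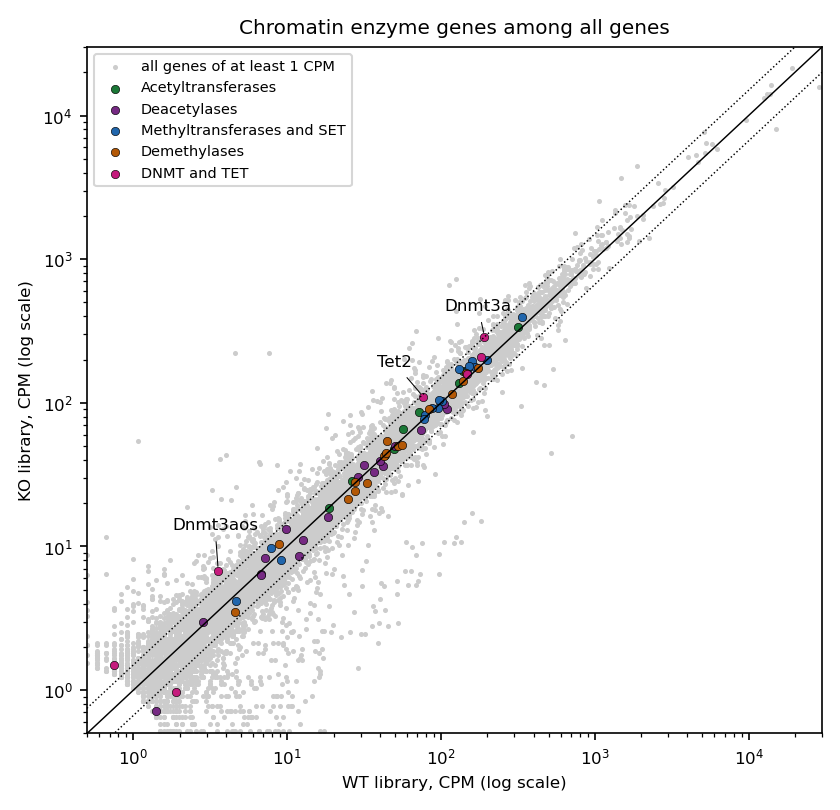
CPM in WT (x axis) and the KO library (y axis), both on log scales, for all genes averaging 1 CPM or more (grey) and the 66 tested enzyme genes (coloured by role, with Dnmt3aos under DNMT and TET). The solid line is equality and the dotted lines are 1.5-fold; Dnmt3a, Dnmt3aos and Tet2 are named, and most enzyme genes lie between the dotted lines.

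The called members were Dnmt3a and a noncoding gene inside it. Dnmt3a, which encodes the main de novo DNA methyltransferase of blood cells (GRCm38 chromosome 12, 3806007 to 3914443, plus strand, protein-coding), had 2315 reads in WT and 4468 in KO. These are 192 and 290 CPM, 1.51-fold higher in KO (1.44 to 1.59), and 93.5% of tested genes had a log2 ratio no larger. The call rests on the scaling, since with total counts the ratio was 1.44 (1.37 to 1.51) and under the threshold. Dnmt3aos, annotated on the opposite strand inside Dnmt3a (chromosome 12, 3859293 to 3862244, minus strand), had 43 and 105 reads, 3.56 and 6.81 CPM, which is 1.91-fold higher (1.33 to 2.79). Its 4 exons cover 1385 bases, 133 of which (9.60%) are also exon of Dnmt3a, and the rest lies within introns of that gene. The strand setting of the counting is unstated, so reads of Dnmt3aos and of unspliced Dnmt3a RNA cannot be told apart. As a share of the reads of both genes Dnmt3aos made 1.82% (1.32 to 2.45) in WT and 2.30% (1.88 to 2.77) in KO, with overlapping intervals. This share was chosen after the values were seen.

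Dnmt1, the maintenance enzyme that copies methylation after replication, had 1774 and 2463 reads, 147 CPM in WT and 160 CPM in KO. Its ratio of 1.09 (1.02 to 1.16) was small. Uhrf1, whose product brings DNMT1 to newly copied DNA, stood at 10.4 and 15.2 CPM, a ratio of 1.46 (1.17 to 1.83), under the call threshold. Dnmt3b, the other catalytic de novo enzyme, had 23 reads in WT and 15 in KO, and the interval of its ratio (0.248 to 1.02) included 1. Dnmt3l, a partner without catalytic activity, had 9 and 23 reads, and its interval of 0.892 to 4.91 included 1 as well. The reads of the de novo pair came almost wholly from Dnmt3a, 99.0% (98.5 to 99.4) in WT and 99.7% (99.4 to 99.8) in KO.

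Tet2 and Tet3 carried the TET reads. Tet2 (chromosome 3, 133463679 to 133545139, minus strand), which encodes a dioxygenase often mutated in myeloid disease, had 925 reads in WT and 1705 in KO. That is 76.6 and 111 CPM, a ratio of 1.44 (1.33 to 1.56), at the 92.0 percentile of tested genes. Tet3 had 2198 and 3216 reads, 182 and 208 CPM, a ratio of 1.15 (1.08 to 1.21). Within the reads of both genes Tet2 therefore made 29.6% (28.0 to 31.3) in WT and 34.6% (33.3 to 36.0) in KO, a share that does not depend on library scaling and whose intervals do not overlap. Tet1, which is best known from embryonic stem cells, had 3 reads in WT and 1 in KO. Dnmt and Tet genes together took 12.2% (11.9 to 12.4) of all reads of the 75 members in WT and 14.4% (14.1 to 14.6) in KO. Between the opposing groups, the Dnmt genes had 56.9% (55.7 to 58.0) and 58.6% (57.7 to 59.5) of those reads. These combined shares of Dnmt and Tet genes were chosen after the values were seen.

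The stretches upstream of the start sites of the genes with the largest well-counted ratios, and of Kmt5a, the most abundant member per length, are shown because CpG dinucleotides are the substrate of the enzymes encoded here. Each runs 5′ to 3′ along its gene over the 250 bases before a RefSeq start site, from the RefSeq promoter table for GRCm38.p6, with every CG in capitals. No annotated GENCODE exon overlaps them, although the GENCODE spans of Dnmt3a and Tet2 begin further upstream. For Dnmt3a the first of its windows along the plus strand is shown, and which start site the cells used was not tested.
Dnmt3a, chr12:3806730-3806979, plus strand: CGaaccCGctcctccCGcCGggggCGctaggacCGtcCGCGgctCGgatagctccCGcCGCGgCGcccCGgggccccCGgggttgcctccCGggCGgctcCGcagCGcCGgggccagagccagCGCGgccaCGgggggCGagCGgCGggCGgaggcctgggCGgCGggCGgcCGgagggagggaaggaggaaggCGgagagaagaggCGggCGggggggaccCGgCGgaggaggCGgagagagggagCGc
Tet2, chr3:133544391-133544640, minus strand: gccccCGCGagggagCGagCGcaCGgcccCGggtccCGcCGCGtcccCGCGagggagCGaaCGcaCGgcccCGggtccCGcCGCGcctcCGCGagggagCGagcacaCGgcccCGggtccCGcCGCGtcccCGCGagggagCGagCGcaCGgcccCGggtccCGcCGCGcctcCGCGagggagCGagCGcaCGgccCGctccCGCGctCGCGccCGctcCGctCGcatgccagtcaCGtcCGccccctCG
Dnmt3aos, chr12:3862245-3862494, minus strand: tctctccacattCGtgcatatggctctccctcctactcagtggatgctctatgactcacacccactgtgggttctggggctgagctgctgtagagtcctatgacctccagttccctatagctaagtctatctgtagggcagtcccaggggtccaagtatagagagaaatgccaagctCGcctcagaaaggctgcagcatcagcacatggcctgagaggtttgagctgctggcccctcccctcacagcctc
Kmt5a, chr5:124439680-124439929, plus strand: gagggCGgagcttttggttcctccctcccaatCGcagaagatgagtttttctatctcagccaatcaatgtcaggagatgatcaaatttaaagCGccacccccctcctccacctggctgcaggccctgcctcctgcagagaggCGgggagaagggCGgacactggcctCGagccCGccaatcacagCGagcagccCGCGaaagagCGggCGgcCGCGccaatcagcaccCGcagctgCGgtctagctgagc

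The Tet2 stretch held 51 CG dinucleotides and the Dnmt3a stretch 38, among the most CpG-dense of 32851 such windows of 27025 genes, whose median was 6. The Kmt5a stretch held 16 and the Dnmt3aos stretch 2. The 82 windows available for 58 member genes had a median of 16.5. Of the motifs searched on both strands, the PU.1 and ETS core GAGGAA was in the Dnmt3a and Kmt5a stretches, and in 17 of 82 member windows (20.7%) against 23.3% of all windows. The interferon-stimulated response element was in 1 member window (1.22%, against 2.98% of all) and the NF-kB motif in 5 (6.10% against 4.65%). The E-box CACGTG was in 6 (7.32% against 6.02%). The E2F forms TTTCCCGC and TTTGGCGC were in 2 (2.44% against 1.30%), and the cAMP response forms TGACGTCA and GACGTCA, the second contained in the first, were in 2 (2.44% against 2.78%). The Tet2 and Dnmt3aos stretches held none of these letters. These are matches of letters and say nothing about binding.

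Acetyltransferases were level, with some members slightly higher in KO. None of the 9 was called in either direction, and their median log2 ratio was 0.08, or 0.0064 with total counts. Ep300, which encodes the enhancer coactivator p300, stood at 319 CPM in WT and 337 CPM in KO, a ratio of 1.06 (1.01 to 1.10). Its paralogue Crebbp, which encodes CBP, stood at 131 and 137 CPM, a ratio of 1.05 (0.984 to 1.12). The proportion of these coactivators was the same to within counting error, Ep300 making 70.9% (69.7 to 72.1) and 71.0% (70.0 to 72.1) of their reads. Kat7, the HBO1 enzyme that acts near replication origins, had the largest ratio of the class at 71.5 against 86.3 CPM in KO, 1.21 (1.11 to 1.32). Kat6a, the MOZ enzyme needed for blood stem cells, followed at 139 and 165 CPM, 1.19 (1.12 to 1.27), and Kat2b, or PCAF, at 56.8 and 65.5 CPM, 1.15 (1.05 to 1.27). Kat2a, or GCN5, had the lowest ratio, 0.972 (0.872 to 1.08), with Kat8 at 0.984 (0.823 to 1.18) and Kat5, or TIP60, at 0.997 (0.888 to 1.12). Kat6b stood at 26.5 and 28.5 CPM.

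Most Hdac genes lay on the lower side in KO by small amounts. Of 11 tested Hdac genes 8 had a log2 ratio below 0, under TMM, total counts and DESeq2 size factors alike, with a median of -0.16, and none was called. Of all tested genes 6028 of 12495 were below 0 under TMM, 7414 of 12496 with total counts and 5864 of 12495 with DESeq2 size factors. All 4 class I genes were among the 8. Hdac3, the catalytic subunit of the NCoR and SMRT complex, had 506 and 561 reads, 41.9 CPM in WT and 36.4 CPM in KO, 1.15-fold lower (1.02 to 1.30). Hdac1 stood at 36.8 and 33.0 CPM, 1.12-fold lower (0.981 to 1.27), Hdac8 at 6.71 and 6.42 CPM, and Hdac2 at 50.1 and 49.8 CPM. Hdac3 was the class I gene whose interval excluded 1.

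Class IIa genes, whose products shuttle to the nucleus and bind MEF2 factors, went in both directions. Hdac5 had 1325 reads in WT and 1393 in KO, 110 and 90.3 CPM, 1.22-fold lower (1.13 to 1.31). Hdac7 stood at 31.8 and 37.1 CPM, a ratio of 1.17 (1.02 to 1.33), Hdac9 at 7.12 and 8.36 CPM, 1.17 (0.887 to 1.56), and Hdac4 at 29.0 and 30.5 CPM, 1.05 (0.913 to 1.21). Hdac4 made 20.9% (19.0 to 22.9) of the reads of Hdac4 and Hdac5 in WT and 25.2% (23.3 to 27.3) in KO. Hdac4 shares 22.4% of its exon bases with exons of another annotated gene, Gm26720, whose part in this share was not tested. The cytoplasmic tubulin deacetylase gene Hdac6 was 1.16-fold lower (0.962 to 1.39) and the polyamine deacetylase gene Hdac10 1.14-fold lower (0.914 to 1.43). Hdac11, of class IV, had 17 and 11 reads and an interval that included 1.

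Sirtuins, the NAD-dependent deacylases, held the well-counted deacetylase genes farthest from equality, in opposite directions. Sirt6, a chromatin-bound H3 deacetylase, had 119 reads in WT and 204 in KO, 9.85 and 13.2 CPM, a ratio of 1.34 (1.07 to 1.70). Sirt4, a mitochondrial enzyme, had 144 and 132 reads, 11.9 and 8.56 CPM, 1.39-fold lower in KO (1.09 to 1.78). Sirt7, the nucleolar sirtuin, was 1.15-fold lower (1.05 to 1.26) at 74.2 against 64.4 CPM. Sirt1 stood at 39.8 and 39.1 CPM and Sirt2, the highest of the 7 per length of exon, at 105 and 97.9 CPM, with intervals that included 1. Sirt3 and Sirt5, which act in mitochondria, had under 100 reads in each library. In all, 5 of the 7 had a log2 ratio below 0, and the median was -0.10 and none was called. HDACs and sirtuins together took 12.1% (11.8 to 12.3) of the reads of all members in WT and 10.3% (10.1 to 10.5) in KO. Of the reads of acetyltransferases and deacetylases, the former held 58.9% (58.2 to 59.7) in WT and 62.7% (62.1 to 63.4) in KO. These combined shares were chosen after the values were seen.

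**Figure D2:**
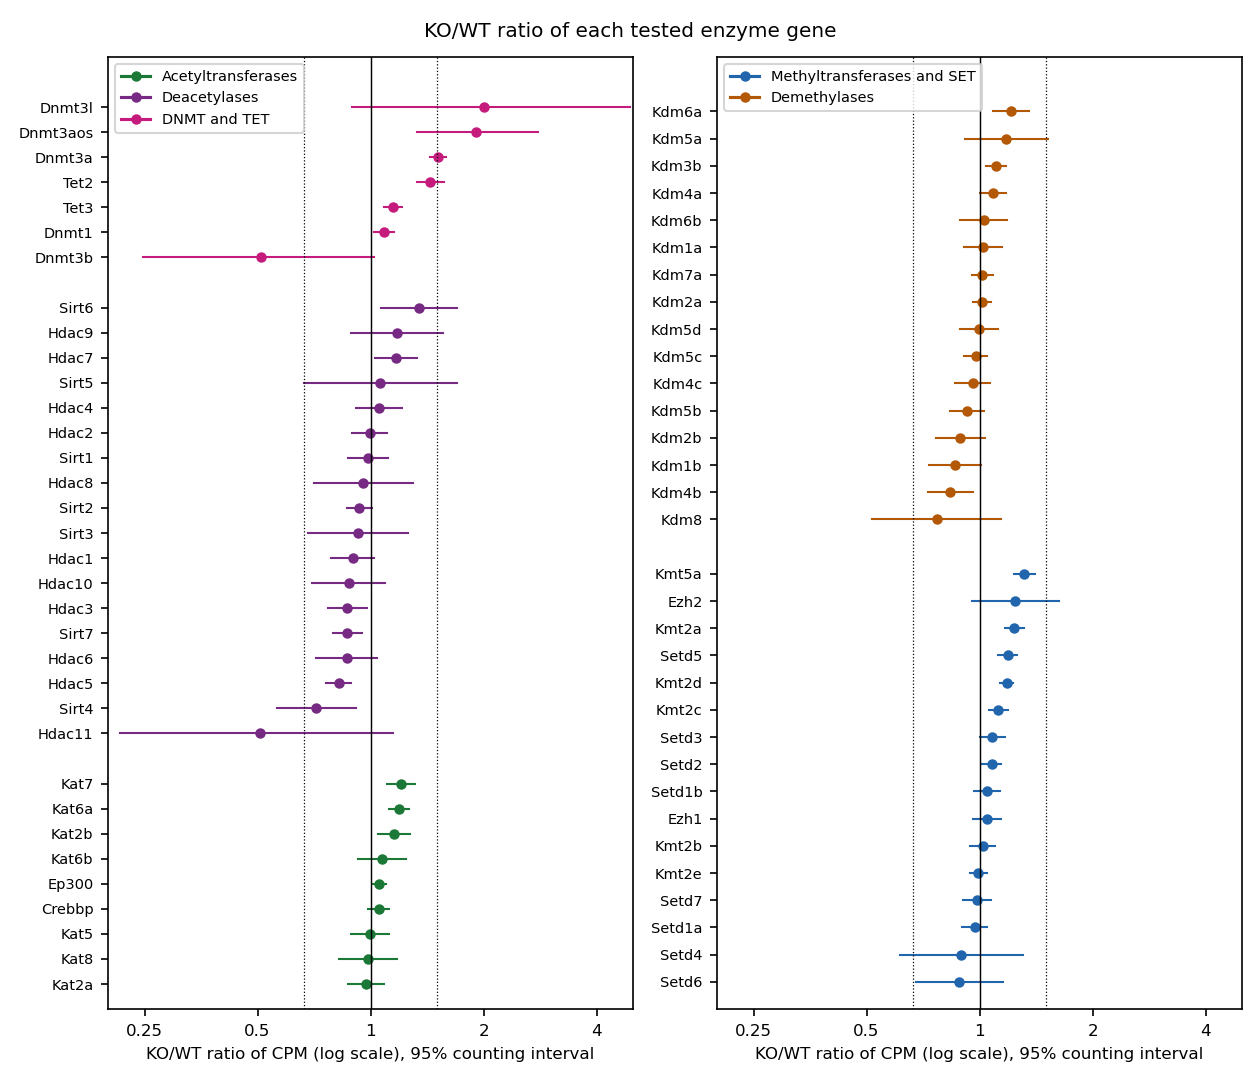
KO/WT ratio of CPM on a log scale (points) with its 95% counting interval (lines) for the 66 tested members, by role and sorted by ratio, with Dnmt3aos under DNMT and TET. The solid vertical line is equality and the dotted lines are 1.5-fold; Dnmt3a and Dnmt3aos pass the upper line with intervals that exclude 1, and the wide intervals belong to genes with few reads.

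Histone methyltransferases were level or slightly higher. The Kmt2 genes with Setd1a and Setd1b, grouped here as the H3K4 class, gave a median log2 ratio of 0.07 over 7 genes. It turned to -0.0039 with total counts. Kmt2a, which encodes MLL1, was at 159 CPM in WT and 197 CPM in KO, a ratio of 1.24 (1.17 to 1.31). Kmt2d, the enhancer monomethylase MLL4 and the member with the most reads, had 4069 and 6136 reads, 337 and 398 CPM, a ratio of 1.18 (1.13 to 1.23). Its paralogue Kmt2c stood at 147 and 165 CPM, 1.12 (1.06 to 1.19). Kmt2b, Setd1b, Kmt2e and Setd1a had ratios between 0.970 and 1.05 with intervals that included 1, and Setd1a shares 52.3% of its exon bases with exons of other annotated genes. Kmt2a took 61.1% (59.4 to 62.9) of the reads of Kmt2a and Kmt2b in WT and 65.7% (64.3 to 67.0) in KO, whereas Kmt2c took 30.4% (29.2 to 31.6) and 29.4% (28.4 to 30.3) of the reads of Kmt2c and Kmt2d.

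Kmt5a (chromosome 5, 124439930 to 124462308, plus strand) encodes the H4K20 monomethylase SET8, whose level follows the cell cycle. It had 1573 reads in WT and 2644 in KO, 130 and 171 CPM, a ratio of 1.32 (1.24 to 1.40), the largest among the histone methyltransferases. Ezh2, the Polycomb H3K27 methyltransferase of dividing cells, had 95 and 151 reads, 7.87 and 9.79 CPM, and its ratio of 1.24 had an interval of 0.956 to 1.63. Ezh1, the form of resting cells, stood at 78.6 and 82.3 CPM, 1.05 (0.962 to 1.14). Ezh1 thus made 90.9% (89.0 to 92.6) of their reads in WT and 89.4% (87.7 to 90.9) in KO. Of the 13 dividing-cell markers 5 were called higher in KO, among them Top2a at 34.4 against 54.2 CPM, 7 were not called, among them Mki67 at 67.6 against 101 CPM, and Tyms was called lower (0.617, 0.400 to 0.948). Their part in the Kmt5a, Ezh2 and Dnmt1 values was not tested.

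The remaining SET genes had a median log2 ratio of 0.04, or -0.028 with total counts, with 3 of 6 above 0. Setd5 had the largest ratio, 1.19 (1.12 to 1.26), at 153 CPM in WT and 182 CPM in KO. Setd2, the main H3K36 trimethylase, was at 165 and 178 CPM, 1.08 (1.02 to 1.14), and Setd3, which methylates a histidine of actin, at 97.2 and 105 CPM. Setd7 stood at 78.0 and 76.9 CPM. Setd4 and Setd6 were 1.12-fold and 1.13-fold lower at 4.64 and 9.11 CPM in WT, with intervals that included 1.

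Demethylases lay close to equality, and their split around it moved with the scaling. Of 14 tested JmjC genes 7 had a log2 ratio above 0 and 7 below, with a median of 0.01, and none was called. With total counts 4 were above 0 and 10 below and the median was -0.06, and with DESeq2 size factors 8 were above and 6 below. Kdm6a, the X-linked H3K27 demethylase UTX, had the largest ratio, 1.22 (1.09 to 1.36), at 44.4 CPM in WT and 53.9 CPM in KO. Kdm6b, or JMJD3, which Toll-like receptor signals induce in macrophages, stood at 27.6 and 28.3 CPM, a ratio of 1.02 (0.887 to 1.19). Kdm5a was at 8.86 and 10.4 CPM, 1.18 (0.917 to 1.52), and Kdm3b, an H3K9 demethylase, at 145 and 161 CPM, 1.11 (1.04 to 1.18). On the lower side Kdm8 had 55 and 54 reads, 1.30-fold lower (0.877 to 1.93), Kdm4b, another H3K9 demethylase, was 1.20-fold lower (1.04 to 1.37) at 33.2 against 27.7 CPM, and Kdm2b, a Polycomb recruiter at CpG islands, 1.13-fold lower (0.968 to 1.31). Its paralogue Kdm2a stood at 173 and 176 CPM. The Y-linked Kdm5d had 517 and 659 reads, 42.8 and 42.7 CPM, and its X-linked homologue Kdm5c 119 and 116 CPM. Kdm4a, Kdm4c, Kdm5b and Kdm7a had ratios between 0.926 and 1.09.

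The flavin-dependent LSD demethylases have a different chemistry. Kdm1a, or LSD1, stood at 44.0 CPM in WT and 44.9 CPM in KO, a ratio of 1.02 (0.911 to 1.15). Kdm1b was 1.17-fold lower (0.994 to 1.37), with 302 and 331 reads. Of the reads of histone methyltransferases, SET enzymes and demethylases together, the methyltransferases and SET enzymes held 64.4% (63.9 to 64.9) in WT and 66.4% (66.0 to 66.8) in KO. This combined share was also chosen after the values were seen.

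Shares within 16 paralogue pairs were compared because they do not depend on how the libraries are scaled. In 12 pairs the intervals of both libraries overlapped, and in 4 they did not: Dnmt3a with Dnmt3b, Tet2 with Tet3, Kmt2a with Kmt2b and Hdac4 with Hdac5. The same count was not made for pairs of other genes, so it describes these pairs only. Kdm6a made 61.7% (58.4 to 64.9) of the reads of Kdm6a and Kdm6b in WT and 65.6% (62.9 to 68.2) in KO. Kat2a made 46.4% (43.7 to 49.2) and 42.2% (39.9 to 44.6) of the reads of Kat2a and Kat2b, and Hdac1 42.4% (39.4 to 45.4) and 39.9% (37.2 to 42.6) of those of Hdac1 and Hdac2. The gene with more reads was the same in both libraries in each of the 16 pairs, though the intervals of Setd1a against Setd1b included 50%. Kmt5b and Kmt5c are not analysed here.

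**Figure D3:**
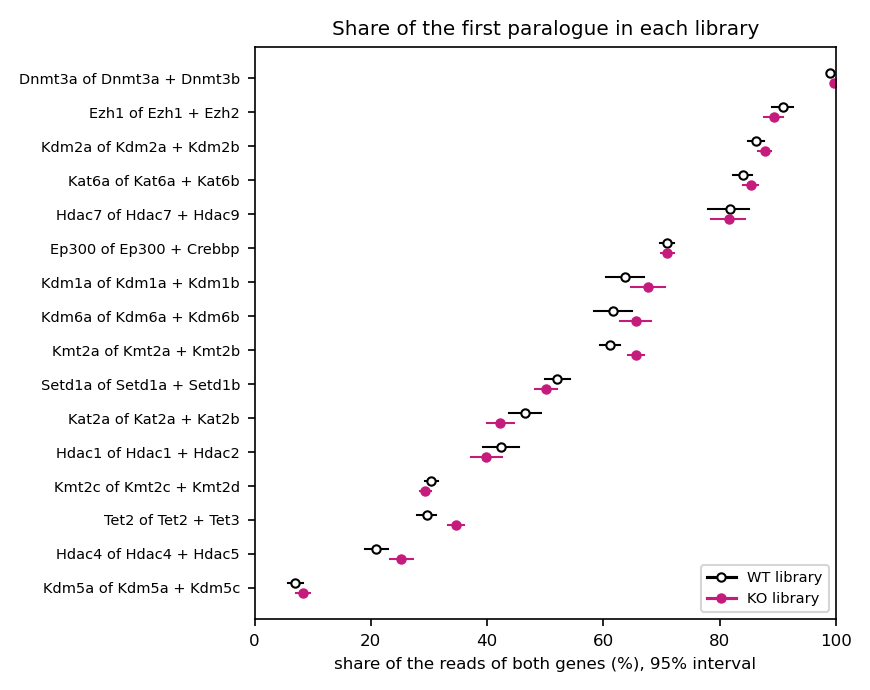
Share of the first-named gene in the reads of both genes of a pair (x axis, percent) with 95% exact intervals, for 16 paralogue pairs, in WT (open) and the KO library (filled). The intervals of Tet2, Kmt2a, Hdac4 and Dnmt3a do not overlap between libraries.

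Per kilobase of exon, levels differed far more between members than between libraries. Values on this scale are CPM per kilobase of exon, over the union of annotated exons, which understates genes with long unused exons. Kmt5a ranked first in both libraries at 24.5 in WT and 32.3 in KO, and Ep300 second at 22.4 and 23.6. Sirt2, Dnmt1, Kmt2e and Kmt2d filled ranks 3 to 6 in WT, and the same genes held ranks 3 to 6 in KO in another order. Dnmt3a moved from rank 21 to 9 of 66, with 11.5 and 17.4, and Tet2 from rank 45 to 38, with 4.54 and 6.55. Hdac5 moved the other way, from rank 17 to 27. The lowest were Dnmt3l, Hdac11 and Dnmt3b in WT and Hdac11, Dnmt3b and Sirt5 in KO. Summed over members, acetyltransferases stood at 106 and 115, HDACs at 60.4 and 55.5, sirtuins at 52.8 and 49.1, demethylases at 117 in each library, histone methyltransferases and SET enzymes at 174 and 192, and Dnmt and Tet genes at 47.5 and 58.8.

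**Figure D4:**
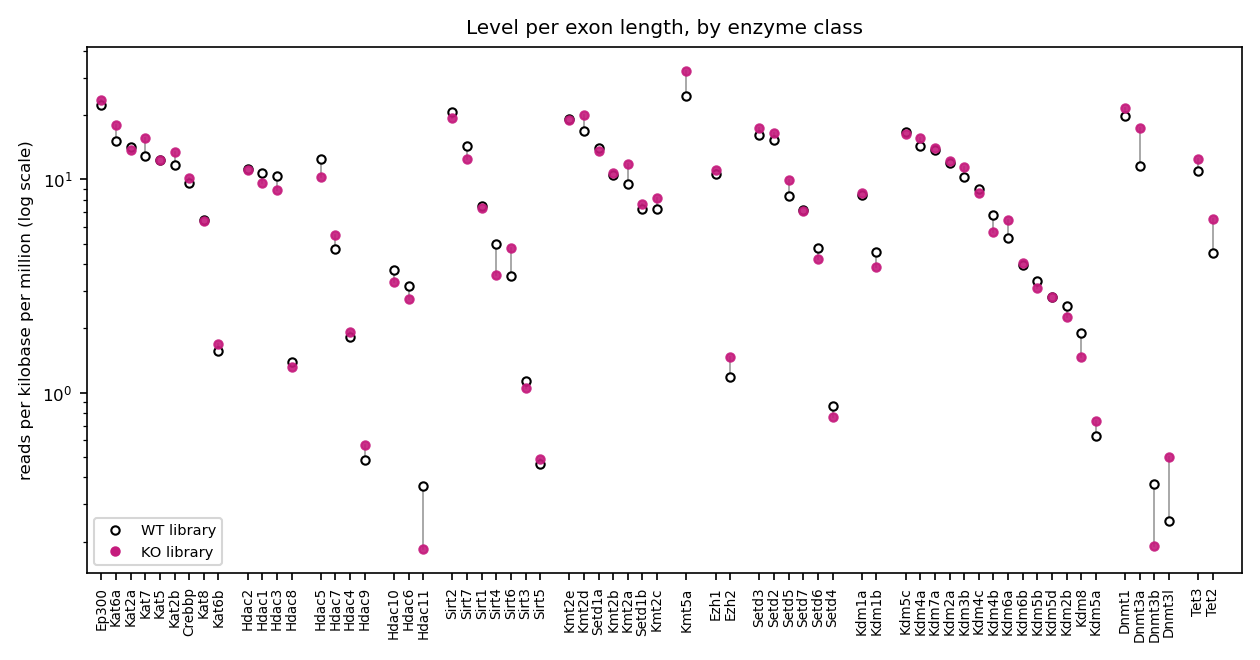
CPM per kilobase of exon (RPKM, log scale) of each tested member except Dnmt3aos, grouped by enzyme class, in WT (open circles) and the KO library (filled circles), joined by a line. Kmt5a is highest in both libraries, and the libraries lie close together for most genes.

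Ratios of the members went with the length of the gene. Across the 66 tested members Spearman's rho between exon length and log2 ratio was 0.41, and across 11774 tested genes with an annotated length it was 0.03. The 33 members in the longest quartile of those genes, above 6754 bases, had a median log2 ratio of 0.08, against 0.04 for all 2946 genes of that quartile. The 4 members of the shortest quartile had a median of -0.25 against 0.0036. Members with more reads also had larger ratios, with rho 0.35 against 0.19 over all genes, and members of higher GC content smaller ones, with rho -0.25 against -0.12. Genes within a library share its depth and base composition, so these are descriptions across genes, and the part of length, level and GC content in the class differences above was not tested. The long members include Dnmt3a (16642 bases), Tet2 (16870), Tet3 (16695), Kmt2a (16670) and Kmt2d (19931), with log2 ratios above 0. Others of the longest quartile lay below 0, among them Kdm5b (16555), Kdm5d (15164), Kdm2b (10869), Setd7 (10813), Kmt2e (10444) and Hdac5 (8780). Short members lay on both sides, with Sirt4 (2398), Kdm8 (2389) and Hdac10 (3379) below 0 and Dnmt3aos (1385, the shortest), Sirt6 (2785) and Dnmt3l (2988) above.

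**Figure D5:**
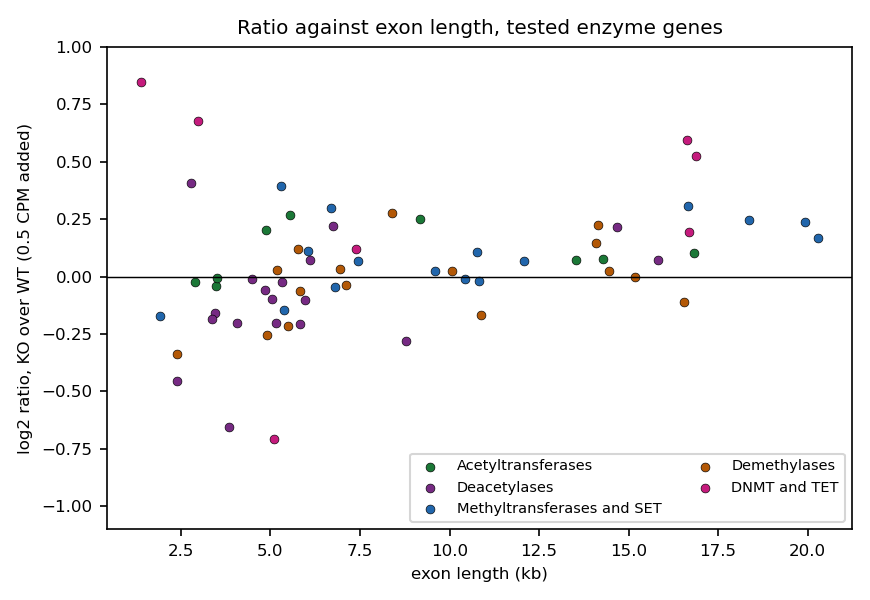
Log2 ratio of KO over WT after adding 0.5 CPM (y axis) against exon length in kb (x axis) for the 66 tested members, coloured by role, with Dnmt3aos under DNMT and TET. Members above 12 kb lie mostly above 0, and the members farthest from 0 on the short side have few reads or are Dnmt3aos.

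Few partners of these enzymes outside the symbol rule were called. Over 10 lists of complex subunits, further enzymes, readers and cofactor genes, 110 of 114 genes were tested, 0 were called higher, against 6.47% of all tested genes, and 2 lower, against 7.23%, and the median log2 ratio was 0.00049. The lower ones were Cbx6, a Polycomb chromodomain gene with 165 and 117 reads, 1.80-fold lower (1.41 to 2.30), and Rcor2, a CoREST subunit with 21 and 7 reads, 3.83-fold lower (1.57 to 10.7). The PRC1 list, the ubiquitin ligase arm of Polycomb, had the lowest median, -0.27 over 14 genes, with 11 below 0 and 3 above. Its members Pcgf1 and Pcgf2 had ratios of 0.702 (0.520 to 0.948) and 0.708 (0.556 to 0.902), under the call threshold, whereas Rnf2 and Bmi1 were at 0.983 and 0.964. Other lists held genes on the higher side, also under the threshold. Mtf2 of the PRC2 list was at 1.45 (1.29 to 1.63). The lysine methyltransferase gene Dot1l was at 1.41 (1.316 to 1.503), and Jade3, of acetyltransferase complexes, at 1.44 (1.10 to 1.91). Of the 110 tested genes 55 had a log2 ratio above 0 and 55 below. PRC2 subunits other than EZH1 and EZH2 had a median of 0.10, COMPASS subunits 0.09, HDAC corepressors -0.05 and subunits of acetyltransferase complexes -6.3e-05. Further lysine methyltransferases had a median of 0.10, further demethylases 0.05, readers and partners of DNA methylation 0.13, bromodomain genes -0.06 and cofactor genes -0.09. Among the last, the citrate lyase gene Acly, a source of acetyl-CoA, stood at 168 and 192 CPM, Nampt, the NAD salvage enzyme that supplies sirtuins, at 336 and 364 CPM, and Idh1, which makes the cofactor of the dioxygenases, at 284 and 238 CPM.

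The 9 members below 1 CPM add no comparison. Kdm4d had 0 and 1 reads and Tet1 3 and 1, while Kdm4dl, Kat6b-ps1, Kat6b-ps2 and Dnmt3a-ps1 had none in either library. The pseudogenes Dnmt3b-ps1, Dnmt3l-ps1 and Kat2b-ps had at most 4 reads in a library. The limit that a count of 0 allows, 3 reads, is 0.248 CPM (WT) and 0.194 CPM (KO), and differences below that were not detectable at this depth.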

How the data were processed

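One count table of 46095 gene symbols was analysed, with 1 library per genotype. The deposited values are raw read counts per gene, per the file headers. The submitters' processing notes name HISAT2 and GRCm38. No counting program, annotation, strand setting or filter is named in the sources used here. Reads shared between overlapping genes or close copies can fall on the wrong one. No row lacked a gene name.

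Counts were divided by TMM effective library sizes (edgeR 4.0.16, R 4.3.3) fitted on the whole table and expressed per 1000000 reads. A gene entered the comparison at a mean of 1 CPM or more. The log2 ratio of KO over WT used 0.5 CPM added to both, which pulls low genes toward 0. Ratios without it carry exact Clopper-Pearson 95% intervals of the split of reads (scipy 1.17.1). Reads are not independent molecules, so intervals cover counting error only. With 1 library per genotype no residual degrees of freedom exist, and no p-value was computed. Shares carry the same kind of interval. Positions and exon lengths came from GENCODE M21 (GRCm38), in which 33912 symbols matched, and promoters from RefSeq (GRCm38.p6). Ratios, intervals and calls were tested on simulated counts with known fold changes and counting error only. Library sizes were given in that test, so it did not check the scaling.

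Full values were given for called members, for up to 3 members in each direction of each class, and for Ezh2, Kdm6b, Hdac3, Hdac7, Sirt1, Tet2, Dnmt3a, Kdm1a, Ep300 and Crebbp, and of each partner list for the called genes. Other genes were named as examples after their values were seen. The members and lists were chosen with earlier results of these data known. Alternatives were 3 other scalings (total counts, DESeq2 1.42.0 size factors, TMM without stromal and collagen genes), other filters, pseudocounts and thresholds. One gene is not reported here.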

Additional observations from a re-analysis of the deposited data

How the results depend on the processing

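Of 312 recomputed values, 303 were within the tolerance. It was 1.5 times for a count, the counting interval for a member's ratio and 0.157 on the log2 scale for a median. A change of scaling multiplies all ratios by the same factor, so a gene's reads decide whether its ratio stays inside its interval. The 196 of 198 member ratios kept are therefore no check of the scaling. Medians that changed sign also counted as kept, since the tolerance was wider than the shift. With total counts 1 member was called higher, Dnmt3aos, and 1 lower, Dnmt3b, in place of 2 and 0, while the shares of all tested genes went from 6.47% to 5.21% higher and from 7.23% to 8.49% lower. With that scaling the ratio of Kmt2d was 1.12, and the ratios of Kmt2d and Ep300 lay below their intervals. At a mean of at least 10 CPM 1 member was called higher, Dnmt3a. At 2-fold 0 members were higher, and at a difference of 25% of the lower value 5 were higher and 1 lower. Without a filter the median of the TET genes was 0.20, since Tet1 with its few reads then counted. Total counts moved the median of all tested genes from 0.01 to -0.06 and that of the members from 0.03 to -0.04, and the medians of the H3K4, JmjC and remaining SET classes changed sign with it. DESeq2 size factors and TMM without stromal genes left both calls in place. No paired analysis was possible because a genotype with 1 library offers no pairs. For the same reason no library could be left out. Depth limits Dnmt3b, Dnmt3l, Hdac11, Sirt5 and Setd4, whose intervals are wide and include 1 under TMM. With total counts the interval of Dnmt3b, 0.236 to 0.972, excluded 1.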

Other observations

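Some partner genes that are broadly expressed in most tissues were listed at very low counts. Ring1, a catalytic subunit of PRC1, had 0 reads in WT and 1 in KO, and Brd2, a BET bromodomain gene, had 11 and 3. The related Rnf2 had 653 and 820 reads. How reads were counted is unstated, so these low counts are not read as absence of the transcripts.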
